A study of Mus musculus with 8 samples.

Results

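Cytosolic ribosomal proteins are the protein subunits of the ribosome that translates nuclear-encoded mRNAs. Their genes were taken as all symbols of the form Rpl or Rps followed by a number, with Rplp0, Rplp1, Rplp2 and Rpsa, on probes with a curated coding transcript, without the Rps6k kinases, pseudogenes and -like genes. This gave 161 probes of 76 genes among 39429 probes and 19751 named genes of the array. Of the 76 genes, 30 encode proteins of the small 40S subunit and 46 encode proteins of the large 60S subunit. Of the 161 probes 160 were tested, and the remaining probe was well above background on 1 array. Rps23 was not analysed here.

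The samples were AtT20 cells, a mouse pituitary corticotroph tumor line that makes proopiomelanocortin and secretes ACTH. Cells in multiwell plates were kept for 48 hr in DMEM with 1% stripped serum, either without an agent (control, 4 samples) or with 10 μM HX630 (4 samples), a synthetic agonist that activates all retinoid X receptor (RXR) subtypes. The comparison asked which transcripts differed in cells given a dose of HX630 that the study examined for its action on growth and cell death. Only 1 cell line, 1 dose and 1 time were measured, and nothing in the labels says that the replicates came from separate cultures, so p-values measure the spread between these samples, which may be technical.

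In growing cells ribosomal protein mRNAs are among the most abundant transcripts, and their products are made in equal amounts, since each ribosome holds a single copy of nearly every one of them. Many of these mRNAs begin with a terminal oligopyrimidine (TOP) tract, a C at the cap followed by a run of C and T, through which mTOR and Larp1 set how well they are translated. Their amount in a cell can thus be held while their translation changes, which an array does not measure.

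The start sites of 7 members are shown because the TOP tract is the sequence feature by which this family is known. RefSeq promoter windows on GRCm38.p6, 250 bases before to 50 bases after an annotated start, were at hand for 56 of the 76 genes. Each line gives 10 bases before the annotated start and 20 bases from it, and capitals mark the first C that is followed by at least 4 pyrimidines and begins within 10 bases of the start, with its whole run as far as the line shows it. The windows of Rps6 (chr4:86857348-86857377, minus strand), Rplp2 (chr7:141447641-141447670, plus strand), Rpl27a (chr7:109519185-109519214, plus strand), Rps10 (chr17:27635225-27635254, minus strand) and Rps2 (chr17:24720053-24720082, plus strand) held such a run, and those of Rps13 (chr7:116334171-116334200, minus strand) and Rps28 (chr17:33824543-33824572, minus strand) did not.
Rps6: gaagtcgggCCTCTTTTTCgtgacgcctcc
Rplp2: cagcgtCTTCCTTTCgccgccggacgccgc
Rpl27a: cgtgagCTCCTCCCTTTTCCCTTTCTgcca
Rps10: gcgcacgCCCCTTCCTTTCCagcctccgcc
Rps2: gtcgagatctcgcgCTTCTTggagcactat
Rps13: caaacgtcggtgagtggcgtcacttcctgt
Rps28: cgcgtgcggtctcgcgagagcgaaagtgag

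A run of this form at the annotated start base itself was present in 13 of the 56 members (23.2%) and in 3.01% of the 27025 genes of the table. Within 10 bases of the start it was present in 33 members (58.9%) and in 34.4% of all genes. CCGGAAG, a core of the sites that ETS factors bind, was found on either strand of the 300-base windows of 24 members (42.9%), of 9.93% of all genes and of 16.8% of the genes tested on the array. AGGTCA, the element that an RXR or its partner receptor binds, was found in 5 members (8.9%) and in 18.1% of all genes, and a pair of these elements spaced by a single base (AGGTCANAGGTCA) was found in 0 members and 0.0481% of all genes. The median log2 fold change was -0.21 in the 13 members with a TOP-form run at the start and -0.20 in the 43 without. A match is a run of letters only, and annotated start sites can differ from those used in AtT20 cells.

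The corticotroph markers Pomc, Tbx19, Neurod1, Pcsk1, Crhr1 and Pitx1 were well above background on all 8 arrays. Of 11 other markers with a probe, from other pituitary hormone cells, fibroblasts, endothelium and leukocytes, Prl, Tshb and Cdh5 were above background on 0 arrays, and Gh, Lhb, Col3a1, Pecam1 and Ptprc were above it on all 8 with signals below the 75th percentile of the array. Each array had between 69.8% and 73.5% of its probes above background. The 4 control arrays lay on 1 slide with 1 scan and the 4 HX630 arrays on another, so the treatment cannot be told apart from the slide and its scan in any value below.

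The signal used throughout is the processed spot signal in log2 units, counted from each array's own 75th percentile, and a log2 fold change is the HX630 mean minus the control mean on that scale. Signals are compared only between arrays for the same probe, because the brightness of different probes does not rank mRNA levels. All 76 genes were well above background on all 8 arrays, with 0 saturated spots, and 73 of them lay in the brightest 5% of the 15332 genes tested.

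The changes of the ribosomal protein genes lay within a narrow range. With limits of 0.01 on the adjusted p and 1.5 on the fold change, the limma test called 0 of 76 genes, whereas 19.5% of all genes tested were called, 8.39% higher and 11.2% lower. This count was 0 under every alternative tried, the methods' t-test included, although 49 of the 76 genes were lower and 0 were higher at an unadjusted p below 0.05 (36.4% and 31.6% of all genes). The 95% interval of the fold change lay wholly inside 1.5-fold in either direction for 70 genes and reached past it for 6 genes, Rps13, Rps27a, Rpl4, Rpl7a, Rps12 and Rps21. The standard deviation of the log2 fold changes was 0.12 over the 76 genes and 0.63 over all genes tested.

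Within that range most members were lower with HX630 when arrays were scaled to their 75th percentile, a direction that quantile normalization and scaling to spike-in probes turned round. At an adjusted p below 0.01 with no limit on fold, 30 of the 76 genes (39.5%) fell and 0 rose, beside 27.2% of all genes lower and 24% higher. The count of 30 came down to 17 without HX630 replicate 2 and to 19 without HX630 replicate 4. The median log2 fold change was -0.20, with quartiles of -0.26 and -0.13 and a range from -0.49 to 0.08, beside a median of -0.03 over all genes. All 4 HX630 arrays lay below all 4 control arrays for 44 genes (32.8% of all genes) and above them for 0 genes (28.6% of all genes). The fitted change was below 0 for 68 genes and above 0 for 8.

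The subunits did not stand far apart in the median of their log2 fold changes. Among 40S genes 13 of 30 fell, with a median of -0.22, and among 60S genes 17 of 46 fell, with a median of -0.19; both medians turned to above 0 with quantile normalization (0.02 and 0.07) and with spike-in scaling (0.0050 and 0.03). The difference between the subunits was not tested.

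**Figure D1:**
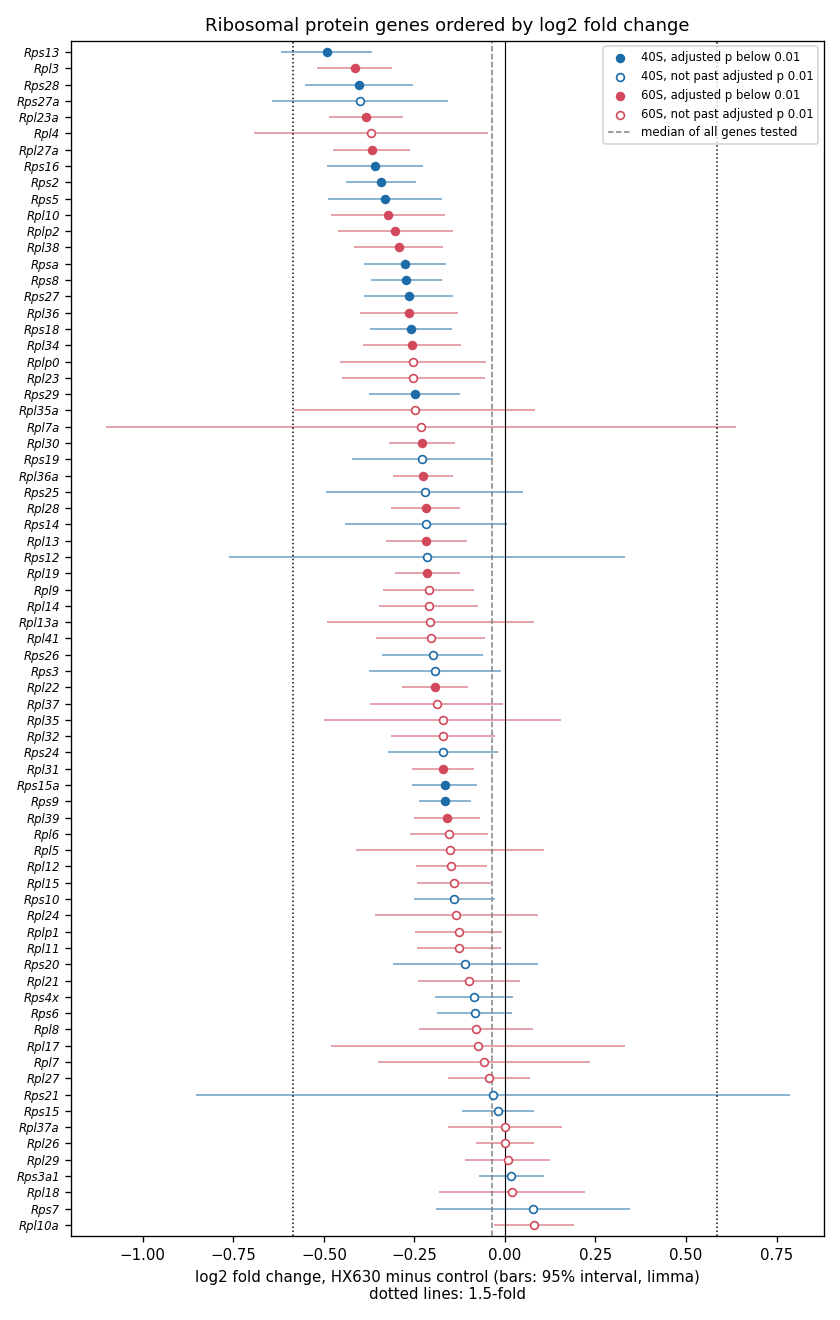
Log2 fold change of 73 of the 76 ribosomal protein genes, ordered from the lowest, HX630 minus control with arrays scaled to their 75th percentile; bars are 95% intervals from limma with 4 arrays in each group, colors mark the subunit, filled points have an adjusted p below 0.01, dotted lines mark 1.5-fold and the dashed line the median of all genes. All 28 filled points lie left of 0 and right of the 1.5-fold line, a direction of the family that quantile normalization and spike-in scaling reversed.

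The median signal of the 76 genes was 6.47, 6.54, 6.38 and 6.45 on control arrays 1 to 4 and 6.20, 6.28, 6.35 and 6.32 on HX630 arrays 1 to 4. The groups did not overlap, but the gap between the lowest control array and the highest HX630 array was small beside the spread, with means of 6.46 ± 0.065 and 6.29 ± 0.064 (SD, n = 4). Other bright genes moved the same way on this scale. The 694 genes outside the family in the brightest 5% had a median log2 fold change of -0.12, and 264 of them (38.0%) were lower and 108 (15.6%) higher at an adjusted p below 0.01, against 30 of the 73 members there (41.1%) lower. With quantile normalization 152 of the 694 were lower and 198 higher, with a median of 0.05, and with spike-ins 113 were lower and 236 higher, with a median of 0.10. Among genes with a mean signal above 6, the median was -0.21 for 103 other genes and -0.21 for 52 members. Between 4 and 6 it was -0.10 for 688 other genes and -0.19 for 22 members. The part of brightness in the lower values of the family was not tested.

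**Figure D2:**
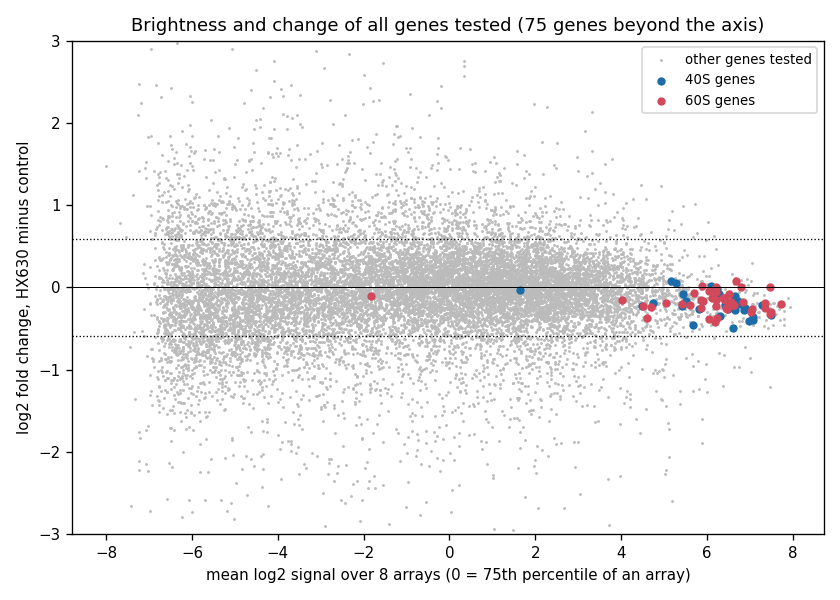
Mean log2 signal over the 8 arrays (0 is the 75th percentile of an array) against log2 fold change, HX630 minus control, for all genes tested; dotted lines mark 1.5-fold. Apart from 1 gene of the 40S and 1 of the 60S, the ribosomal protein genes lie at the bright end, in a band centered below 0 along with other bright genes; under quantile normalization and spike-in scaling the center of the band lay above 0.

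How arrays were scaled decided on which side of 0 the family lay. With each array's median in place of the 75th percentile, 8 members were lower and 0 higher at an adjusted p below 0.01 (20.1% and 28.9% of all genes), with a median of -0.11. With normexp background correction 17 were lower and 0 higher (23.1% and 19.5% of all genes), with a median of -0.17. With quantile normalization 4 were lower and 13 higher (23.9% and 29% of all genes), with a median of 0.05. Scaling to the spike-in probes, RNA added in fixed amounts, moved the median of all genes from -0.03 to 0.19. A single factor per array moves all genes alike, so the family's distance from all genes was kept by construction, with a median of 0.02 against 0.19. With spike-ins 2 members were lower and 6 higher (13.6% and 40.1% of all genes). The family's median minus that of all genes was -0.17 with the 75th percentile and thus, by construction, with spike-ins. It was -0.08 with normexp background correction and 0.02 with quantile normalization.

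**Figure D3:**
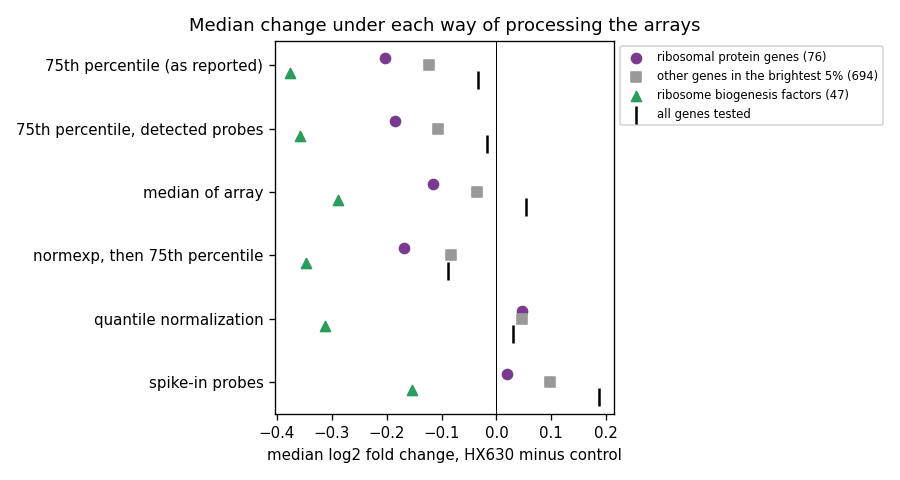
Median log2 fold change, HX630 minus control, of 76 ribosomal protein genes, 694 other genes in the brightest 5%, 47 ribosome biogenesis factors and all genes tested, under 6 ways of processing the same 8 arrays. The family's median runs from -0.20 to 0.05, below 0 under 4 ways and above 0 under quantile normalization and spike-in scaling, while that of the biogenesis factors stays below 0 under all 6.

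The members did not all move alike, and this holds whatever single factor scales an array. Rps13, a 40S protein bound to 18S rRNA, had signals of 6.92, 6.95, 6.74 and 6.79 on the control arrays and 6.36, 6.35, 6.41 and 6.32 on the HX630 arrays. All HX630 values were lower, by 28.9% on the linear scale (log2 fold change -0.49, SE 0.054, adjusted p = 1.29e-04). The second Rps13 probe gave -0.34. Rps13 kept its direction and an adjusted p below 0.01 in all 25 alternatives, between -0.53 and -0.20.

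Rpl3, which reaches into the peptidyl transferase center where peptide bonds are made, had control signals of 6.36, 6.51, 6.34 and 6.38 and HX630 signals of 5.96, 5.97, 6.01 and 5.98. It fell by 0.41 (adjusted p = 1.16e-04), which stayed past 0.01 with quantile normalization and lost the call with spike-in scaling (-0.19, adjusted p = 0.0167). Rpl3 had 1 probe, so no other probe could be set beside it.

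Rpl23a, a 60S protein beside the exit of the nascent chain tunnel, had control signals of 6.24, 6.29, 6.20 and 6.28 and HX630 signals of 5.77, 5.87, 5.93 and 5.90. The groups did not overlap (log2 fold change -0.38, adjusted p = 1.69e-04), and its second probe gave -0.19 with an adjusted p of 0.00462. Rps28, a 40S protein near the mRNA exit and a gene of Diamond-Blackfan anemia, had control signals of 7.27, 7.28, 7.04 and 7.12 and HX630 signals of 6.75, 6.76, 6.86 and 6.72. It fell by 0.40 (adjusted p = 9.58e-04), which lost the call with quantile normalization (adjusted p = 0.0498) and with spike-ins (adjusted p = 0.0153), and that of Rpl23a lost it with spike-ins (adjusted p = 0.0481).

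At the other end were genes that did not pass the test, named here after their values were seen. Rpl10a, the protein of a mobile stalk of the 60S subunit, had control signals of 6.73, 6.71, 6.54 and 6.62 and HX630 signals of 6.72, 6.75, 6.71 and 6.75 (log2 fold change 0.08, adjusted p = 0.179), but its second probe gave -0.18 (adjusted p = 0.0103). Rps3a1, a 40S protein, gave 0.02 and 0.05 from its 2 probes. Rpl26 and Rpl37a, both of the 60S, had fitted changes of 0.00. The log2 fold change of Rps13 minus that of Rpl10a was -0.57 and minus that of Rps3a1 it was -0.51, differences that a change of scaling factor leaves as they are. They set chosen extremes side by side and carry no test.

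When each array was centered on the median of the 76 genes, an alternative chosen after seeing the data, 4 members lay lower at an adjusted p below 0.01, Rps13, Rpl3 and Rpl23a among them, and 2 lay higher, including Rpl10a (0.26, adjusted p = 0.00439), with 13.1% of all genes lower and 31.6% higher. The higher value of Rpl10a came from its brightest probe only, as its second probe lay at 4.6e-04 with this centering (adjusted p = 0.994). Rps13 was also lower with spike-in scaling, and Rpl10a was among the members higher with spike-in scaling and with quantile normalization, along with Rpl26, Rpl29, Rps15 and Rps3a1.

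**Figure D4:**
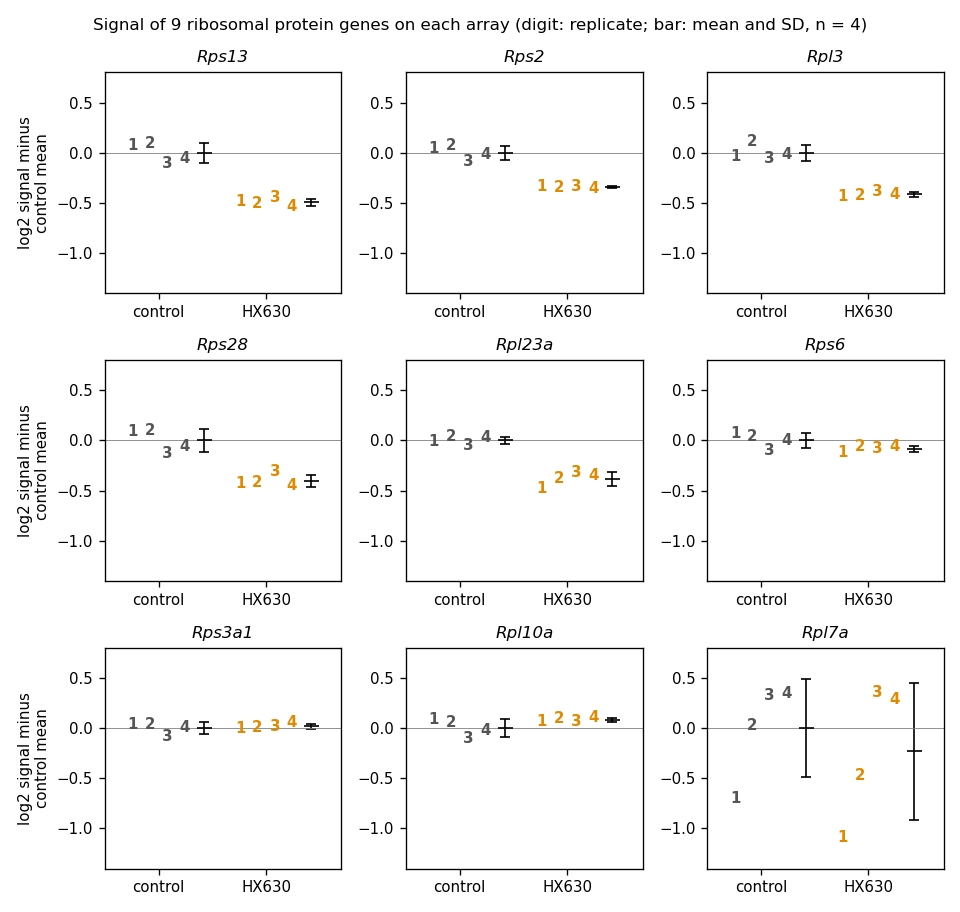
Signal of 9 ribosomal protein genes on each of the 8 arrays, as log2 signal minus the mean of the 4 control arrays, scaled to the 75th percentile; digits are replicate numbers and bars are the mean with its SD (n = 4). In the top row and in Rps28 and Rpl23a the groups do not overlap, in Rps6, Rps3a1 and Rpl10a they do, and in Rpl7a the replicate 1 arrays of both groups lie far below the replicate 3 and 4 arrays. Rps6 moved to above 0 with quantile normalization, median and spike-in scaling.

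Members with a known role were described as a panel. Rplp0, Rplp1 and Rplp2 form the stalk that recruits elongation factors to the 60S subunit. Rplp2 had control signals of 7.74, 7.78, 7.47 and 7.61 and HX630 signals of 7.34, 7.32, 7.36 and 7.36 and fell by 0.30 (adjusted p = 0.00586), a value that came to -0.0015 with quantile normalization. The fall of Rplp2 lost an adjusted p below 0.01 in 14 of the 25 alternatives. Rplp0, often used as a reference transcript, had -0.25 (adjusted p = 0.0356) and Rplp1 had -0.13 (adjusted p = 0.0659), and neither passed 0.01; with quantile normalization they read 0.04 and 0.17, and Rplp1 read 0.09 with spike-ins. With Rpl12 (-0.15, adjusted p = 0.0169) the stalk thus counted 1 of 4 genes that fell at an adjusted p below 0.01, beside 27.2% of all genes. On the signal scale used throughout, all HX630 arrays lay below all control arrays for each of these 4 genes (32.8% of all genes). Rpl12 read 0.12 with quantile normalization and 0.07 with spike-ins.

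Rpl3 and Rpl10, the latter a protein added late to the 60S subunit near the peptidyl transferase center, both fell. Rpl10 had control signals of 7.74, 7.74, 7.44 and 7.64 and HX630 signals of 7.30, 7.30, 7.32 and 7.34 (log2 fold change -0.32, adjusted p = 0.00414), and it read -0.03 with quantile normalization. The fall of Rpl10 lost an adjusted p below 0.01 in 13 of the 25 alternatives, that of Rpl3 in 1. The other probes of Rpl10 gave -0.19 (adjusted p = 0.0693) and -0.27 (adjusted p = 0.0103). Of the proteins lining the exit tunnel, Rpl39 fell by 0.16 (adjusted p = 0.00861) but read 0.07 with quantile normalization and 0.06 with spike-ins, while Rpl4 had -0.37 with overlapping groups (adjusted p = 0.0512; exact permutation p = 0.0857, two-sided). Rpl4 passed 0.01 with array weights (-0.45, adjusted p = 0.00999) and with a block for the replicate number (adjusted p = 0.00455). Of the 4 X-linked members 3 fell (27.2% of all genes), Rpl10, Rpl36a and Rpl39, and Rps4x did not pass. Rpl36a had control signals of 4.66, 4.68, 4.58 and 4.59 and HX630 signals of 4.42, 4.40, 4.41 and 4.38, a narrow pair of groups that did not overlap (log2 fold change -0.23, adjusted p = 9.03e-04), and it read -0.0061 with spike-ins. The other probes of Rpl36a did not pass, with -0.11 (adjusted p = 0.0668) and -0.05 (adjusted p = 0.513).

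In the 40S subunit, Rps2 and Rps3 line the mRNA entry. Rps2 had control signals of 6.51, 6.54, 6.38 and 6.45 and HX630 signals of 6.13, 6.13, 6.14 and 6.12 and fell by 0.34 (adjusted p = 2.3e-04), with -0.31 from its other probe and -0.06 with quantile normalization. Rps3 had -0.19 (adjusted p = 0.0653) and read 0.03 with spike-ins. Rpsa, also known as a laminin receptor, had control signals of 6.82, 6.90, 6.70 and 6.74 and HX630 signals of 6.52, 6.50, 6.54 and 6.50 and fell by 0.28 (adjusted p = 0.00168), but read 0.01 with quantile normalization. Rps27a, made as a fusion with ubiquitin, had -0.40 with an SE of 0.105 and did not pass 0.01 (adjusted p = 0.0118). It passed 0.01 in 5 of the 25 alternatives and read -0.10 with quantile normalization (adjusted p = 0.348).

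Rps6, the protein phosphorylated by the S6 kinases under mTOR, had control signals of 6.40, 6.37, 6.22 and 6.33 and HX630 signals of 6.20, 6.27, 6.25 and 6.27. The groups overlapped (log2 fold change -0.08, adjusted p = 0.145; exact permutation p = 0.114), and the value read 0.19 with quantile normalization, 0.0040 with each array's median and 0.14 with spike-ins. Its other probes gave -0.17 and 0.05.

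Rpl5 and Rpl11 with 5S rRNA bind Mdm2 and so can stabilize p53, and Rpl23 also binds Mdm2. Of these 3 genes 0 were lower at an adjusted p below 0.01 by limma (27.2% of all genes). At an unadjusted limma p below 0.05, 2 of the 3 were lower (36.4% of all genes). Rpl5 had -0.15 (adjusted p = 0.274), Rpl11 -0.13 (adjusted p = 0.0612) and Rpl23 -0.25 (adjusted p = 0.0337). Scaling to spike-ins turned Rpl5 to 0.07 and Rpl11 to 0.10, and quantile normalization turned Rpl11 to 0.16 and Rpl23 to 0.04. Of 14 genes known for Diamond-Blackfan anemia, an inherited red cell aplasia, 2 fell (14.3%, beside 27.2% of all genes), Rps28 and Rps29 (the latter at 0.03 with quantile normalization), and the 14 ranged from -0.40 to 0.08. Among them Rps19, the gene most often mutated in that disease, had -0.23 (adjusted p = 0.0476).

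In the brightest probe of a few members the spread was so wide that no change of this size could be seen. Rpl7a had control signals of 4.12, 4.85, 5.15 and 5.17 and HX630 signals of 3.73, 4.34, 5.18 and 5.10, an SE of 0.374. Rps12 had 6.12, 6.66, 6.60 and 6.71 in control and 5.72, 6.18, 6.64 and 6.69 with HX630, an SE of 0.235. Rps21 had 0.81, 1.65, 1.91 and 2.27 in control and 1.11, 1.33, 1.89 and 2.18 with HX630, an SE of 0.353. Rpl7a had 4 tested probes, Rps12 had 2 and Rps21 had 1, and these values are those of the brightest probe. These 3 genes were named after their values were seen, and the median SE of the family was 0.054. In each of them the replicate 1 array was the lowest of its group in control and in HX630, and in both groups the replicate number was also the position of the array on its slide; the part of position was not tested.

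Of 51 genes with more than 1 tested probe, all probes were below 0 in 38 and 12 had probes on both sides of 0. Over probes, 57 of 160 were lower and 2 higher at an adjusted p below 0.01 (26.7% and 23.5% of all probes with a named gene), and 0 were called at 1.5-fold. The 3 probes of Rps16, a 40S protein, gave -0.36, -0.33 and -0.37. The 3 probes of Rpl27a, a 60S protein, gave -0.37, -0.28 and -0.23.

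The probes that rose belonged to Rpl30 and Rpl15, in neither case the brightest probe of the gene. For Rpl30, a 60S protein, the brightest probe had control signals of 6.38, 6.39, 6.25 and 6.33 and HX630 signals of 6.10, 6.11, 6.13 and 6.09 (log2 fold change -0.23, adjusted p = 0.00154). A dim probe of Rpl30 rose by 0.32 (adjusted p = 2.0e-04). That probe is assigned to another RefSeq transcript of the gene than the other Rpl30 probes. The brightest probe of Rpl30 read 0.03 with quantile normalization and -0.0078 with spike-ins. For Rpl15 a dim probe rose by 0.28 (adjusted p = 6.7e-04), while the brightest gave -0.14 (adjusted p = 0.0262), which did not pass, and read 0.14 with quantile normalization (adjusted p = 0.00351) and 0.08 with spike-ins (adjusted p = 0.277). The rise of these 2 probes held an adjusted p below 0.01 under every scaling and background correction tried, from 0.25 to 0.54 for Rpl30 and from 0.28 to 0.50 for Rpl15. Many pseudogenes in the mouse genome resemble ribosomal protein mRNAs, so signals of single probes can be shared with such copies.

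Other parts of the translation machinery were set beside the family, as counts at an adjusted p below 0.01, beside 27.2% of all genes lower and 24% higher. With quantile normalization these shares of all genes were 23.9% and 29%, and with spike-ins 13.6% and 40.1%. Of 47 ribosome biogenesis factors, nucleolar proteins that process rRNA and build the subunits, 42 fell and 0 rose, with a median of -0.38. Of these, 13 were called at 1.5-fold (11.2% of all genes lower), which came to 11 with quantile normalization, 10 with each array's median and 6 with spike-ins. The largest fall was that of Rrp1b, a nucleolar protein, from 0.12, 0.43, 0.02 and 0.18 in control to -0.75, -0.86, -0.78 and -0.95 with HX630 (log2 fold change -1.02, adjusted p = 3.82e-05). With spike-in scaling 19 of the 47 were still lower and 0 higher, with a median of -0.15 against 0.19 for all genes, and with quantile normalization 34 were lower and 0 higher. Of 12 genes of RNA polymerase I and its factors, which transcribe rRNA, 8 fell and 0 rose, with a median of -0.24, but with spike-ins 4 were lower and 2 higher, with a median of -0.02. Taf1d, a subunit of the promoter selectivity factor, fell by 0.95 (adjusted p = 4.39e-06).

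Other TOP mRNAs lay where the ribosomal protein genes lay, with a median of -0.20 over 19 genes, 8 lower and 1 higher, and this median too was above 0 with quantile normalization (0.04; 2 lower and 2 higher) and spike-ins (0.02; 0 lower and 3 higher). Npm1, a nucleolar chaperone, fell by 0.32 (adjusted p = 4.21e-05), a call lost with quantile normalization (-0.14, adjusted p = 0.0254), with spike-ins (-0.10, adjusted p = 0.0942) and with centering on the family (-0.15, adjusted p = 0.0539). Hnrnpa1, an RNA-binding protein, rose by 0.48 (adjusted p = 8.77e-05). Of 53 translation initiation factors, a list taken by symbol that also holds kinases and inhibitors of these factors, 25 fell and 4 rose, with a median of -0.16 that was -0.01 with quantile normalization (13 lower and 5 higher) and 0.06 with spike-ins (5 lower and 18 higher). Eif5, which promotes start codon recognition, fell by 0.66 (adjusted p = 2.79e-06), and Eif2ak2, a kinase activated by double-stranded RNA, rose by 0.55 (adjusted p = 5.47e-05). Mitochondrial ribosomal proteins, which serve a ribosome of their own, spread more widely, with a standard deviation of 0.20 over 78 genes. Of these 32 fell and 7 rose, with a median of -0.11 that was -0.04 with quantile normalization (19 lower and 15 higher) and 0.11 with spike-ins (5 lower and 26 higher).

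**Figure D5:**
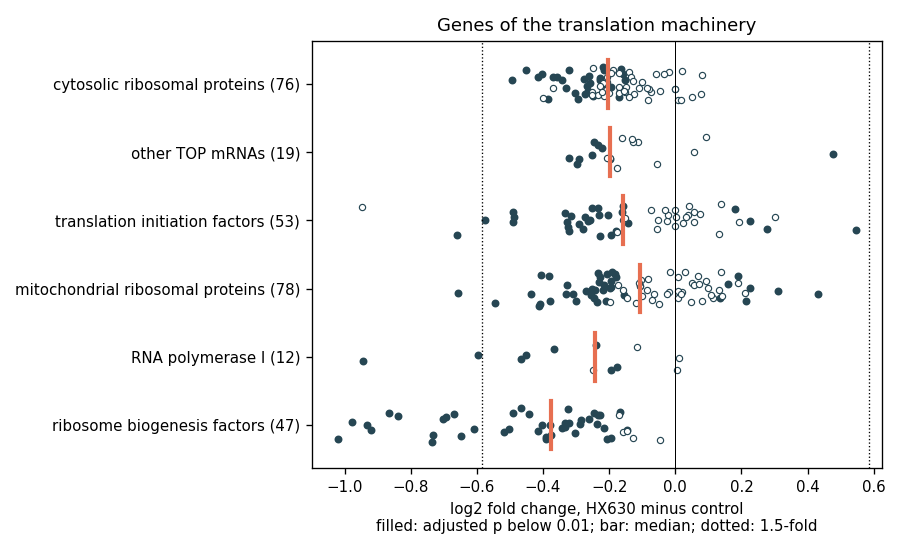
Log2 fold change, HX630 minus control with arrays scaled to the 75th percentile, of each tested gene in 6 lists of the translation machinery; filled points have an adjusted p below 0.01, orange bars are medians and dotted lines mark 1.5-fold. The ribosomal protein genes form the tightest of the larger lists around -0.20, and 13 biogenesis factors lie past the 1.5-fold line; the median of the ribosomal proteins and of other TOP mRNAs was above 0 with quantile normalization and spike-ins, that of the initiation factors and of the mitochondrial ribosomal proteins was above 0 with spike-ins.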

How the data were processed

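AtT20 cells (4 control, 4 HX630 samples) were profiled on 1-color Agilent 4x44K v2 mouse arrays. Per the file headers the deposited processed signal is a spot intensity from Agilent Feature Extraction 10.7.3.1 after background subtraction. The authors also deposited a log2 table, which was found to hold the same signals scaled to each array's 75th percentile, apart from an offset of at most 0.0013.

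The 1377 control spots among 44397 and outlier spots were left out, spots of a probe were averaged, and each array's 75th percentile over its probes (intensities of 1335 to 1899) was subtracted on the log2 scale. Probes well above background on 4 or more of the 8 arrays were tested (28560 of 39429). Groups were compared with lmFit and eBayes of limma 3.58.1 in R 4.3.3, with Benjamini-Hochberg adjustment over all probes tested. A call needed a fold change above 1.5 and an adjusted p below 0.01. A gene was read from its brightest tested probe. Permutation tests of single genes used all 70 regroupings of the arrays (smallest p 0.0286), two-sided. The number of arrays limits the precision. The fit was tested on simulated data.

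Probes were named by RefSeq accession in a table of assembly GRCm38.p6 (66.1% of probes matched). The array was designed on another build, so no probe coordinates are given. Genes were named by rule: called members, the 5 largest falls and 5 largest rises past 0.01, a panel of 15 role genes, members with opposed probes, and the extremes of each other list. Members and lists were chosen with earlier results of these data known. Alternatives covered scaling, background, filters, variance model, the methods' t-test, the replicate block and leaving out each array. Of the members, 3 entered all counts and fits but are not reported here by name.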

Additional observations from a re-analysis of the deposited data

Results flagged for a closer look

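The highest and the lowest array of each group were compared with the nearest other array for the 20 named ribosomal protein genes and the median of the family, 42 groups in all, of which chance alone marks about 2.1 (1 in 20 groups). The gap stood out in 1 group. Rpl5 on the control replicate 1 array had a signal of 3.86 beside a mean of 4.19 for the other 3 control arrays, a gap of 0.836 of the whole range of the group. Without that array the log2 fold change of Rpl5 was -0.24 in place of -0.15.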

How the results depend on the processing

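No gene of the family was called at 1.5-fold under any alternative. The count of 30 lower genes came to 8 with each array's median, 17 with normexp, 4 with quantile normalization and 2 with spike-ins, and 0 higher became 13 and 6 under the last pair; over probes it was 57 lower and 2 higher. The family median was -0.11 with each array's median, 0.047 with quantile normalization and 0.019 with spike-ins, and minus that of all genes it was 0.018 with quantile normalization and -0.079 with normexp. Quantile normalization turned Rplp0 to 0.043, Rplp1 to 0.17, Rpsa to 0.015, Rps6 to 0.19, Rpl11 to 0.16, Rpl23 to 0.035 and Rpl30 to 0.034. Spike-ins turned Rplp1 to 0.093, Rps6 to 0.14, Rpl5 to 0.069, Rpl11 to 0.10 and Rps3 to 0.027, and each array's median turned Rps6 to 0.0040. Centering on the family's own median, chosen after seeing the data, gave 4 lower and 2 higher with a median of -0.027, by construction near 0, and turned Rplp1 to 0.048, Rps6 to 0.092, Rpl5 to 0.023 and Rpl11 to 0.050. The cause of the other changes was not tested. Leaving out 1 array gave 17 (without HX630 replicate 2) to 32 lower genes and 0 higher, medians of -0.22 to -0.16, and -0.19 to -0.12 relative to all genes. All 76 genes were read from probes well above background on all 8 arrays. The values changed with scaling and with the array left out, and sharing of probe signals with pseudogenes was not tested.

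Deviations of same-numbered arrays from their group means correlated at 0.524, -0.00897, 0.243 and 0.382. The numbers are also slide positions, and the main fit did not take them as pairs. With the replicate block 21 members were lower and 0 higher, with a median of -0.20. Of the named members Rplp2 (adjusted p = 0.0158) and Rpl10 (adjusted p = 0.0114) then lost 0.01, while Rpl4 (adjusted p = 0.00455) and Rps19 (adjusted p = 0.00986) passed it.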

Other observations

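Ribosomal protein-like paralogs were kept out of the family. Of 6 tested, 2 fell and 1 rose at an adjusted p below 0.01, beside 27.2% and 24% of all genes, and with spike-ins 1 was lower and 2 higher. Rpl3l, the paralog of Rpl3 known from striated muscle, had control signals of -3.74, -3.62, -3.94 and -3.87 and HX630 signals of -6.31, -6.38, -6.69 and -6.29 (log2 fold change -2.62, SE 0.11, adjusted p = 6.87e-07), while Rpl3 itself fell by 0.41. Rpl7l1, the paralog of Rpl7 that acts in nucleoli, rose by 0.22 (adjusted p = 0.0019), a call lost with normexp background correction (0.065, adjusted p = 0.299).

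Of 14 genes that control ribosomal protein synthesis, 6 fell and 1 rose, beside 27.2% and 24% of all genes, with a median of -0.12. With quantile normalization 3 were lower and 1 higher, with a median of -0.06, and with spike-ins the balance turned round to 1 lower and 6 higher, with a median of 0.10 (13.6% and 40.1% of all genes). Myc, which drives transcription of ribosomal genes, had control signals of -1.27, -1.30, -1.27 and -1.26 and HX630 signals of -1.87, -1.97, -2.03 and -1.84 (log2 fold change -0.65, adjusted p = 1.27e-05). Mtor, the kinase that sets the translation of TOP mRNAs, rose by 0.33 (adjusted p = 1.34e-04). Among mitochondrial ribosomal proteins, Mrps18b fell by 0.66 (adjusted p = 3.04e-06) and Mrps11 rose by 0.43 (adjusted p = 4.69e-05).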
